A study of Mus musculus with 12 samples.

Results

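The genes described here are the cytochrome P450 genes of families 1 to 4 and the glutathione S-transferase (Gst), UDP-glycosyltransferase (Ugt) and aldehyde dehydrogenase (Aldh) genes of the mouse. They were chosen by symbol alone, as every gene on the array whose name starts with Cyp and a family number of 1 to 4, with Gst, with Ugt or with Aldh, and they make up 120 of the 19938 genes measured. The P450 families hold 69 of them (3 Cyp1, 44 Cyp2, 6 Cyp3 and 16 Cyp4 genes), and there are 21 Aldh, 19 Gst and 11 Ugt genes. A further 22 symbols of the same families, among them the Ugt1a genes, Gsta1 and Gsta2, lie only on probesets that the annotation gives to several genes, and they are no members.

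RNA from sorted mouse mammary cells was hybridised to 12 arrays, 3 for each of 4 groups. Wnt4-deleted cells came from MMTV::Cre+.Wnt4fl/fl.mT/mG females and WT cells from MMTV::Cre+.Wnt4wt/wt.mT/mG females, aged 10 to 14 weeks, so that all groups carried the Cre transgene, driven by the mouse mammary tumour virus promoter, and the membrane Tomato and GFP reporter. Lineage-depleted GFP-positive cells were split by CD24 into CD24 high cells, named luminal in the labels, and CD24 low cells, named myoepithelial. The Wnt4-deleted CD24 high arrays carry the title numbers 4, 12 and 16, the Wnt4-deleted CD24 low arrays 3, 11 and 15, the WT CD24 high arrays 2, 10 and 14 and the WT CD24 low arrays 1, 9 and 13, and values are given in this order. These numbers form 3 sets (1 to 4, 9 to 12 and 13 to 16) with 1 array of each group, and the labels do not say what a set is. Cre under this promoter acts in the mammary epithelium but need not reach every cell, and only cells that had switched on GFP were collected. The labels speak both of glands and of grafts, and they do not say which animals gave which sample, and the p-values thus cover only the spread among these arrays.

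These enzymes handle lipophilic compounds in steps. P450 enzymes are haem proteins, mostly of the endoplasmic reticulum, that insert oxygen into drugs, pollutants, steroids and fatty acids, and aldehyde dehydrogenases oxidise the aldehydes that arise from lipids, alcohols and retinal to acids. Glutathione S-transferases then attach glutathione to reactive products and UDP-glycosyltransferases attach sugars. The liver is the main site of most of them, but the mammary epithelium is exposed to oestrogens, dietary lipids and pollutants stored in fat, and aldehyde dehydrogenase activity is used to sort mammary progenitor cells.

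All values are log2 expression after robust multi-array averaging (RMA), so that a difference of 1 is a factor of 2. The lowest array median was 5.64 and the highest 5.82. Each difference comes from limma fitted to all 12 arrays and all genes, with Benjamini-Hochberg adjusted p-values over 19938 genes, and a gene passed at an adjusted p under 0.05. Wnt4 averaged 6.45 ± 0.34 in Wnt4-deleted CD24 high cells and 7.65 ± 0.25 in WT CD24 high cells (SD, n = 3 each). No array of one genotype overlapped the other there, at a difference of -1.20 and an adjusted p of 0.416, and whether its probeset lies in the deleted part is not known. The measured luminal markers were higher in CD24 high cells (9 of 9) and the myoepithelial markers lower (10 of 10) in both genotypes. Endothelial and fibroblast markers also stood higher in CD24 low cells: 6 of 10 endothelial markers passed in Wnt4-deleted and 5 of 10 in WT, and 2 of 10 fibroblast markers in each. The mean of the endothelial list ranged from 5.07 to 6.38 in CD24 high arrays and from 6.46 to 9.13 in CD24 low arrays, with arrays 3 and 1 lowest among the CD24 low ones, and all 10 endothelial markers were above background there. An array reads RNA pooled over a sorted fraction, and fewer cells of a type and less RNA per cell cannot be told apart.

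The genes that stood above a guide to background were unevenly spread over the families. As a guide to background, the 95th percentile of 1027 olfactory receptor genes, silent in this tissue, was between 4.96 and 5.12 in the 4 groups. In at least 1 group, the mean of 53 of the 120 genes lay above it. This held for 17 of 21 Aldh, 16 of 19 Gst and 1 of 3 Cyp1 genes, against 13 of 44 Cyp2, 1 of 6 Cyp3, 5 of 16 Cyp4 and 0 of 11 Ugt genes. The 53 include the pseudogenes Cyp2d37-ps and Cyp4f41-ps, with group means of 5.34 to 5.55 and of 5.43 to 5.51. By definition some olfactory receptor genes also lie above the guide, and the share of all genes above the guide was not counted. The classic liver genes Cyp1a2, Cyp2e1, Cyp3a11 and Cyp4a10 were among the 67 that stayed below it in every group. The hepatocyte marker Alb averaged 3.98 in Wnt4-deleted and 4.05 in WT CD24 high cells, below the guide as well, and 3 of 10 hepatocyte markers were above it.

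The 2 fractions differed in 24 of the 120 genes (20%) in Wnt4-deleted cells and in 20 (16.7%) in WT cells, against 16.4% and 16.1% of all genes. Of the 24, 13 were higher in CD24 high cells, where 8.23% of all genes were higher, and 11 lower, where 8.22% of all genes were lower. Of the 20 in WT, 9 were higher (7.93% of all genes) and 11 lower (8.21% of all genes). The shares thus stood near those of all genes, and the median difference was -0.00 in Wnt4-deleted and 0.05 in WT cells, beside 0.01 and 0.02 over all genes. The families differed: 8 of 21 Aldh and 6 of 19 Gst genes passed in Wnt4-deleted and 7 and 6 in WT, against 6 and 3 of 44 Cyp2 genes and 1 of 11 Ugt genes in each. Below the background guide in every group were 4 of the 21 Aldh and 3 of the 19 Gst genes, against 31 Cyp2 and all 11 Ugt genes. The part of the expression level in this difference was not tested. In both genotypes 17 of the 120 passed, 9 of them higher in CD24 high cells and 8 lower, and none in opposite directions. The 2 contrasts share no array, but they share 1 estimate of the spread of each gene and are not independent. Over all genes 2465 passed in both genotypes, also with 0 in opposite directions. A group mean below the guide gives only an upper limit of the level there, so a difference or fold against it is a lower limit. Among the genes that passed, this held for Aldh1l2, Cyp2j9, Cyp3a57 and Gstm3 in both genotypes, for Aldh5a1 and Cyp2f2 in Wnt4-deleted and for Aldh1a1 and Cyp2j6 in WT cells. The 27 genes that passed in 1 genotype or both included 24 above the background guide, and the other 3 were Cyp2c23, Cyp2d11 and Ugt8a.

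**Figure D1:**
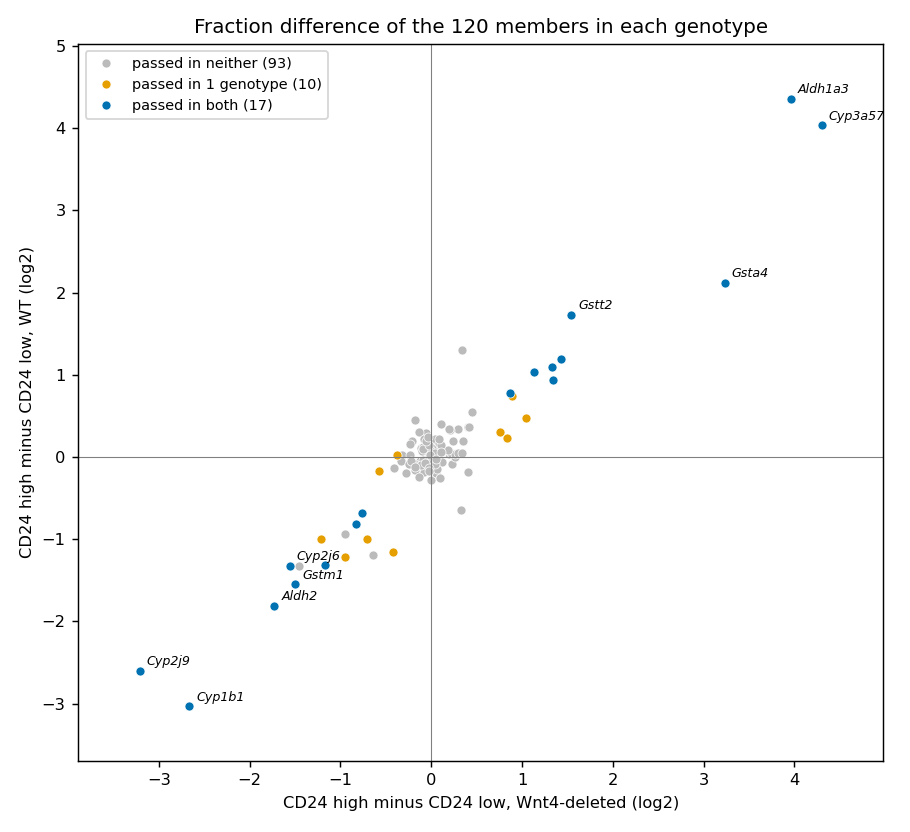
Log2 difference of CD24 high minus CD24 low cells in Wnt4-deleted (x axis) and in WT cells (y axis) for the 120 genes, each point 1 gene, coloured by whether it passed at an adjusted p under 0.05 in both genotypes (17), in 1 (10) or in neither (93). Aldh1a3 and Cyp3a57 lie farthest up on both axes and Cyp2j9 and Cyp1b1 farthest down.

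Among the P450 genes, Cyp1b1 and Cyp2j9 were the 2 with the lowest differences, and Cyp3a57 the one with the highest. Cyp1b1 oxidises polycyclic aromatic hydrocarbons and oestradiol outside the liver and is a known target of the aryl hydrocarbon receptor. Its log2 values were 7.28, 6.15 and 6.42 in Wnt4-deleted CD24 high cells, against 9.13, 9.26 and 9.47 in Wnt4-deleted CD24 low cells. WT arrays read 5.83, 6.86 and 6.61 in CD24 high cells, against 9.68, 9.57 and 9.15 in CD24 low cells. The fractions lay far apart in both genotypes, with a difference of -2.67 (SE 0.31, limma adjusted p = 1.4e-04) in Wnt4-deleted and -3.03 (SE 0.31, adjusted p = 5.8e-05) in WT cells, 6.37-fold and 8.18-fold lower in CD24 high cells. The CD24 low arrays 3 and 1, which had the lowest endothelial marker means (6.46 and 6.58), had 9.13 and 9.68 for Cyp1b1, the lowest and the highest value among CD24 low arrays, beside 9.15 to 9.57 in the other 4. The other Cyp1 genes, Cyp1a1 and Cyp1a2, stayed at background, and Cyp1a1 differed by -0.18 in Wnt4-deleted and -0.09 in WT cells.

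The stretch of 250 bases before the start of Cyp1b1 and of Gstm1 is shown. Both genes were lower in CD24 high cells in both genotypes. Both hold the core bound by the aryl hydrocarbon receptor, GCGTG, on 1 strand (in capitals, CACGC where it lies on the other strand). Cyp2j9, also lower in both genotypes, holds the core 171 bases before its listed start and is not shown. Cyp2j6, Cyp2s1 and Gstm3, lower as well, have windows without the core, and Ugt8a, which holds it, was higher. Both stretches shown come from the RefSeq promoter table, build GRCm38.p6, minus strand, 5′ to 3′, at chr17:79715062-79715311 and chr3:108017974-108018223. In both the core begins 76 bases before the start used. Gstm1 has another listed start, with its window at chr3:108017819-108018068, and the same core begins 231 bases before that start.
Cyp1b1: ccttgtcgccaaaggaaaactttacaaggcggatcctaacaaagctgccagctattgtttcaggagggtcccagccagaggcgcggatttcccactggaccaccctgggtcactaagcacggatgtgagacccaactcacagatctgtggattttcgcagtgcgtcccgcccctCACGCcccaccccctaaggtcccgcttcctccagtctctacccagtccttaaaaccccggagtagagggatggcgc
Gstm1: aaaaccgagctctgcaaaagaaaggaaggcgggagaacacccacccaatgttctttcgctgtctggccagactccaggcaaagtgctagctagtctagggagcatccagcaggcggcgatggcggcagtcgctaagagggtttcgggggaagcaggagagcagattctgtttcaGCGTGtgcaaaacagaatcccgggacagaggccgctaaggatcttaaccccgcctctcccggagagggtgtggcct
The same letters, on either strand, were in 30.9% of all 27025 genes with such a window, in 22 of the 95 members with one (23.2%) and in 4 of the 11 with one among the 17 genes that passed in both genotypes (Cyp1b1, Cyp2j9, Gstm1 and Ugt8a). The core of the antioxidant response element, TGACNNNGC on either strand, was in 11.5% of all genes, in 7 of the 95 members (7.37%) and in 0 of these 11. A match is a description of the letters and not a bound site.

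Cyp2j9 and its neighbour Cyp2j6 belong to a subfamily that oxidises arachidonic acid, and both were lower in CD24 high cells. Cyp2j9 read 4.25, 4.22 and 4.17 in Wnt4-deleted CD24 high cells, against 7.09, 7.05 and 8.14 in Wnt4-deleted CD24 low cells. In WT the values were 4.52, 4.14 and 4.58 in CD24 high cells, against 7.10, 7.12 and 6.82 in CD24 low cells. All CD24 high arrays were thus at background and all CD24 low arrays well above it. The difference was -3.21 (SE 0.25, adjusted p = 8.7e-06) in Wnt4-deleted cells and -2.60 (SE 0.25, adjusted p = 4.1e-05) in WT cells. Cyp2j6 had 5.50, 5.17 and 4.81 in Wnt4-deleted CD24 high cells, against 6.72, 6.39 and 7.06 in Wnt4-deleted CD24 low cells, and WT cells had 4.98, 4.58 and 5.31, against 6.39, 6.22 and 6.22. Its fractions did not overlap either, and it differed by -1.56 and by -1.32 (adjusted p = 7.1e-04 and 0.00225). The other 4 Cyp2j genes on the array (Cyp2j5, Cyp2j11, Cyp2j12 and Cyp2j13) were at background and did not pass, although Cyp2j5 lies next to Cyp2j9 among these 6 in the RefSeq gene order (GRCm38.p6).

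Cyp2s1, a P450 of epithelia outside the liver that dioxin induces, read 5.39, 6.02 and 5.62 in Wnt4-deleted CD24 high cells, against 7.55, 6.59 and 6.41 in Wnt4-deleted CD24 low cells. WT arrays had 5.58, 5.21 and 5.42 in CD24 high cells, against 6.98, 6.65 and 6.49 in CD24 low cells. The difference was -1.17 (adjusted p = 0.0135) in Wnt4-deleted and -1.31 (adjusted p = 0.00747) in WT cells, and the call in Wnt4-deleted cells was lost without array 4 or without array 16 (-1.03 and -1.14, adjusted p = 0.0526 and 0.0507) and in a model of the compared groups only (adjusted p = 0.0709). On arrays 9 to 16 it was -0.68 in Wnt4-deleted cells and still passed. Arrays 3 and 1 had the highest values among the CD24 low arrays of their genotype. These 2 arrays also had the highest skeletal muscle marker means, 7.79 and 6.86, against 5.35 to 5.62 in the other CD24 low arrays, and the part of those cells in Cyp2s1 was not tested.

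Cyp4b1, a P450 known for activating pro-toxins in the lung, is named after its values were seen, because it differed by nearly as much as Cyp2j6 without passing. It read 5.60, 6.38 and 5.79 in Wnt4-deleted CD24 high cells, against 6.21, 8.30 and 7.65 in Wnt4-deleted CD24 low cells. WT cells had 5.92, 6.28 and 5.76 in CD24 high arrays, against 6.66, 7.62 and 7.65 in CD24 low arrays. The fractions overlapped in Wnt4-deleted cells only. The lowest CD24 low values were those of arrays 3 and 1, as for the endothelial, pericyte, adipocyte and immune marker means. The difference of -1.46 had an adjusted p of 0.0517 in Wnt4-deleted cells, and the -1.32 in WT cells one of 0.078. Both passed under several alternatives, among them the title-number sets as a block (adjusted p = 0.00777 in Wnt4-deleted and 0.0132 in WT cells). It was -2.05 in Wnt4-deleted cells without array 3 (adjusted p = 0.00217) and -1.01 without array 11 (adjusted p = 0.177). The part of endothelial cells, pericytes, adipocytes or immune cells in this gene was not tested.

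**Figure D2:**
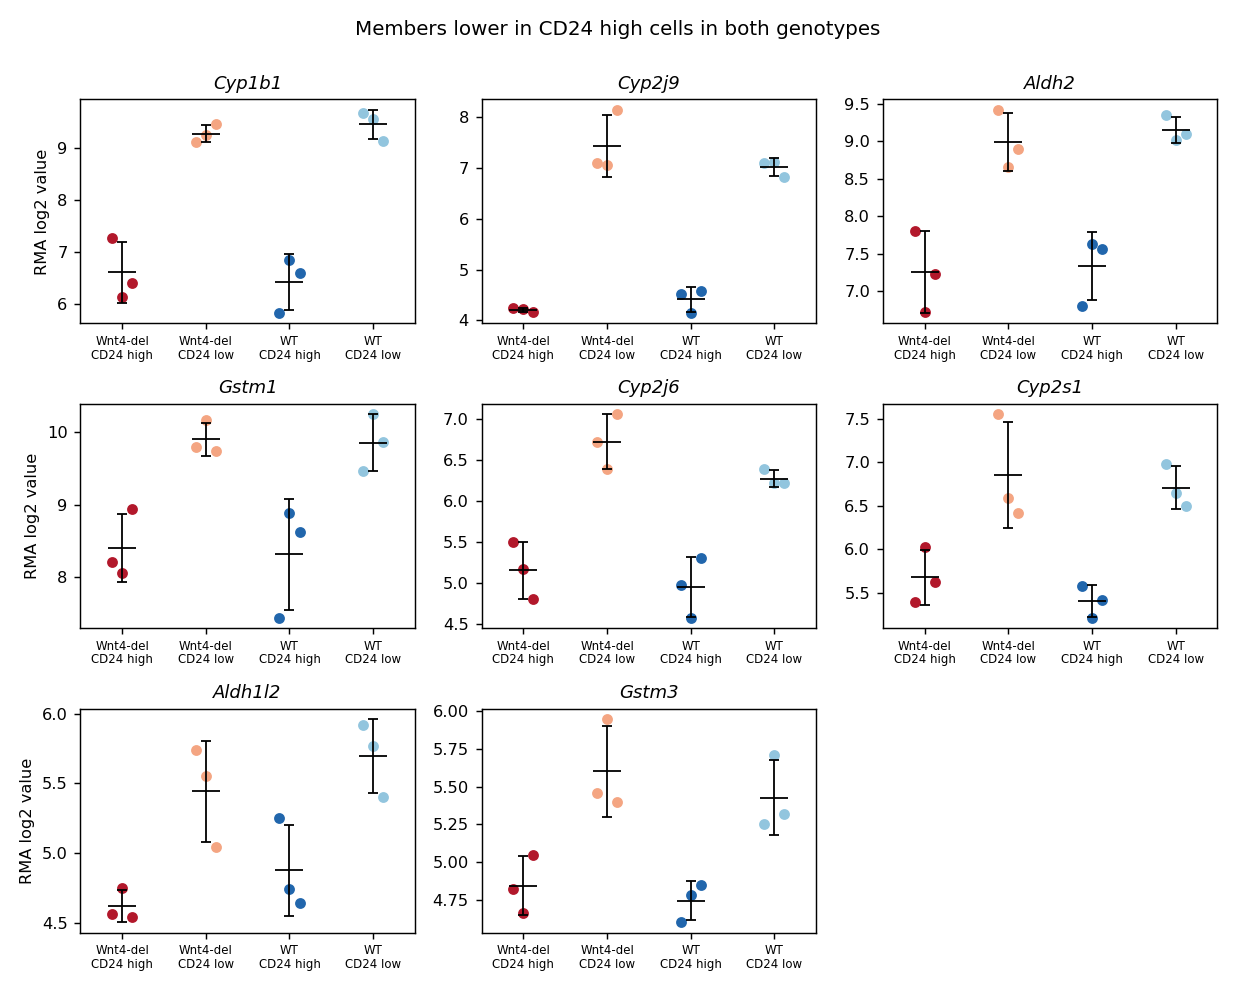
RMA log2 values of the 8 genes that were lower in CD24 high cells in both genotypes, each point 1 array, with the mean and SD of 3 arrays per group in black. For Cyp1b1 no CD24 high array exceeds 7.28 and no CD24 low array lies below 9.13, and for every gene the CD24 high arrays lie below the CD24 low arrays of the same genotype.

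Cyp3a57, one of the large mouse Cyp3a cluster, was the only Cyp3 gene above background. In Wnt4-deleted cells it read 6.31, 9.09 and 8.94 in CD24 high arrays, against 3.55, 3.5 and 4.38 in CD24 low arrays. In WT cells it read 8.12, 7.38 and 8.12 in CD24 high arrays, against 3.68, 3.96 and 3.86 in CD24 low arrays. CD24 low cells were at background in both genotypes, and array 4 was the lowest CD24 high array. The difference was 4.30 (SE 0.60, adjusted p = 4.9e-04) in Wnt4-deleted cells and 4.04 (SE 0.60, adjusted p = 7.7e-04) in WT cells. Without array 4 it was 5.21 in Wnt4-deleted cells. As the CD24 low means lay below the guide, these differences are lower limits. A probeset that the annotation gives to Cyp3a59, Cyp3a57 and Cyp3a25 together moved the same way, with means of 5.98 in Wnt4-deleted CD24 high and 3.27 in Wnt4-deleted CD24 low cells, and 5.30 in WT CD24 high and 3.06 in WT CD24 low cells. The near-identical genes of this cluster cannot be told apart with certainty. The remaining 5 Cyp3a genes did not pass, with differences between -0.24 and 0.35 in Wnt4-deleted cells, and Cyp3a11, a main hepatic one, was at background.

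Of the other P450 genes, 4 passed, with differences under 1, and they are named after their values were seen. Cyp4f13, from a subfamily of fatty acid and eicosanoid hydroxylases, was higher in CD24 high cells by 0.87 in Wnt4-deleted (adjusted p = 0.00339) and by 0.78 in WT cells (adjusted p = 0.00656). Its values were 7.17, 7.78 and 7.76 in Wnt4-deleted CD24 high cells, against 6.57, 6.61 and 6.91 in Wnt4-deleted CD24 low cells, with no overlap. Cyp2f2, which activates naphthalene in the mouse lung, passed in Wnt4-deleted cells (0.89, adjusted p = 0.0469) and not in WT cells (0.74, adjusted p = 0.097). Cyp2d11 (-0.58) and Cyp2c23 (-0.38) passed in Wnt4-deleted cells only, with adjusted p-values of 0.0232 and 0.0451. The group means of Cyp2d11 and Cyp2c23 were at background, at 3.67 and 4.25 for Cyp2d11 and 3.5 and 3.88 for Cyp2c23 in Wnt4-deleted CD24 high and CD24 low cells. The calls of Cyp2f2, Cyp2d11 and Cyp2c23 were each lost when any 1 of several arrays was left out, 9 of 12 for Cyp2f2, and that of Cyp2c23 also with the title-number sets as a block (adjusted p = 0.0697). Among the 13 Cyp2c, 10 Cyp2d, 5 Cyp2b and 5 Cyp4a genes no other passed in either genotype.

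The aldehyde dehydrogenases were divided between the fractions. Aldh1a3, which makes retinoic acid from retinal and is a known marker of luminal progenitors, had the highest difference of all 19938 genes in WT cells. It read 10.35, 8.91 and 10.38 in Wnt4-deleted CD24 high cells, against 6.30, 6.03 and 5.42 in Wnt4-deleted CD24 low cells. In WT the values were 10.14, 10.54 and 11.11 in CD24 high cells, against 6.96, 6.16 and 5.60 in CD24 low cells. CD24 high arrays were all above 8.9 and CD24 low arrays all below 7.0. The difference was 3.96 (SE 0.45, adjusted p = 1.2e-04), or 15.5-fold, in Wnt4-deleted cells and 4.36 (SE 0.45, adjusted p = 6.1e-05), or 20.5-fold, in WT cells. All 7 luminal progenitor markers, of which Aldh1a3 is 1, were higher in CD24 high cells in both genotypes.

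Aldh1a1, the relative of Aldh1a3 that also oxidises retinal, ran in the opposite direction. It read 4.69, 4.98 and 4.88 in Wnt4-deleted CD24 high cells, against 6.24, 5.83 and 5.32 in Wnt4-deleted CD24 low cells. Among WT cells it had 4.46, 4.57 and 4.76, against 5.81, 6.49 and 5.13. The CD24 high means were below the background guide and the CD24 low means above it, with no overlap. It passed in WT (-1.21, adjusted p = 0.0194) and not in Wnt4-deleted cells (-0.95, adjusted p = 0.0587), and both outcomes depended on single arrays. The WT call was lost without array 1, 2, 9 or 10 (adjusted p up to 0.065) and on arrays 9 to 16 (0.0976), while in Wnt4-deleted cells it passed without array 9, 13 or 15 (adjusted p = 0.0244, 0.0251 and 0.032) and with the title-number sets as a block (0.0453). The third retinal-oxidising enzyme, Aldh1a2, was at background in every group and differed by -0.01 in Wnt4-deleted and 0.02 in WT cells.

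Aldh2, the mitochondrial enzyme that clears acetaldehyde, was lower in CD24 high cells. It read 7.81, 6.72 and 7.23 in Wnt4-deleted CD24 high cells, against 9.42, 8.66 and 8.89 in Wnt4-deleted CD24 low cells. WT values were 6.81, 7.63 and 7.57 in CD24 high cells, against 9.35, 9.01 and 9.09 in CD24 low cells. The groups did not overlap, and the difference was -1.73 (SE 0.30, adjusted p = 0.00224) in Wnt4-deleted and -1.81 (SE 0.30, adjusted p = 0.00175) in WT cells. In arrays 3 and 1, the lowest in endothelial and the highest in skeletal muscle markers, Aldh2 was higher than in the other CD24 low arrays of the same genotype. The part of either cell type in Aldh2 was not tested. Aldh1l2, a mitochondrial folate enzyme, was lower by 0.83 and 0.82 on the log2 scale (adjusted p = 0.0229 in Wnt4-deleted and 0.0238 in WT cells), with CD24 high means below the background guide, and the call was lost without array 3, 4, 11 or 16 in Wnt4-deleted and without array 1, 9, 10 or 14 in WT cells.

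The 5 Aldh3 genes, which oxidise medium- and long-chain aldehydes from lipids, all had positive differences in both genotypes, and 4 passed in Wnt4-deleted and 2 in WT cells. Aldh3b2 read 6.85, 7.45 and 7.31 in Wnt4-deleted CD24 high cells, against 5.56, 6.0 and 5.75 in Wnt4-deleted CD24 low cells. Its WT values were 6.90, 6.54 and 6.99 in CD24 high cells, against 5.34, 5.59 and 5.93 in CD24 low cells. The difference was 1.43 (adjusted p = 6.5e-04) in Wnt4-deleted and 1.19 (adjusted p = 0.00222) in WT cells, with no overlap. Aldh3b1, on chromosome 19 like Aldh3b2 and Aldh3b3, read 6.60, 7.19 and 7.26 in Wnt4-deleted CD24 high cells, against 5.75, 5.73 and 5.56 in Wnt4-deleted CD24 low cells. WT cells had 6.41, 6.54 and 6.35 in CD24 high arrays, against 5.20, 5.84 and 5.45 in CD24 low arrays. The fractions were again apart, by 1.34 (adjusted p = 7.1e-04) and 0.94 (adjusted p = 0.00681).

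Aldh3a2, the fatty aldehyde dehydrogenase, read 9.41, 9.53 and 9.63 in Wnt4-deleted CD24 high cells, against 9.20, 8.18 and 8.08 in Wnt4-deleted CD24 low cells. In WT it read 8.91, 9.0 and 9.25 in CD24 high cells, against 8.92, 8.43 and 8.41 in CD24 low cells. In both genotypes the array with the most skeletal muscle markers (3 and 1) was the highest CD24 low array, and in WT array 1 overlapped the CD24 high range. It passed in Wnt4-deleted cells (1.04, adjusted p = 0.0193) and not in WT cells (0.47, adjusted p = 0.308), and the call in Wnt4-deleted cells was lost without array 11, 12, 15 or 16. Aldh3b3 passed in Wnt4-deleted cells (0.76, adjusted p = 0.014), not in WT cells (0.30, adjusted p = 0.352) and not as the mean of its 3 probesets, and the call was lost without array 16. Aldh3a1, named after its values were seen, did not pass, and its WT difference of 1.30 fell to 0.35 without array 14, which read 8.11 against 5.30 and 5.22 in arrays 2 and 10.

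Enzymes of amino acid breakdown also appeared among the Aldh genes. Aldh4a1, of proline catabolism, read 5.59, 5.68 and 5.86 in Wnt4-deleted CD24 high cells, against 6.52, 6.28 and 5.59 in Wnt4-deleted CD24 low cells. WT arrays read 5.11, 5.46 and 5.80 in CD24 high cells, against 6.45, 6.72 and 6.69 in CD24 low cells. The fractions were apart in WT (-1.16, adjusted p = 0.00576) and overlapped in Wnt4-deleted cells through array 15 (-0.42, adjusted p = 0.287, and -0.69 with an adjusted p of 0.0412 without it). The WT difference minus the Wnt4-deleted one was -0.74, with an adjusted p of 1. Aldh5a1, succinic semialdehyde dehydrogenase, passed in Wnt4-deleted cells (0.83, adjusted p = 0.0156, lost without array 4 or 15) and not in WT cells (0.23, adjusted p = 0.558).

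**Figure D3:**
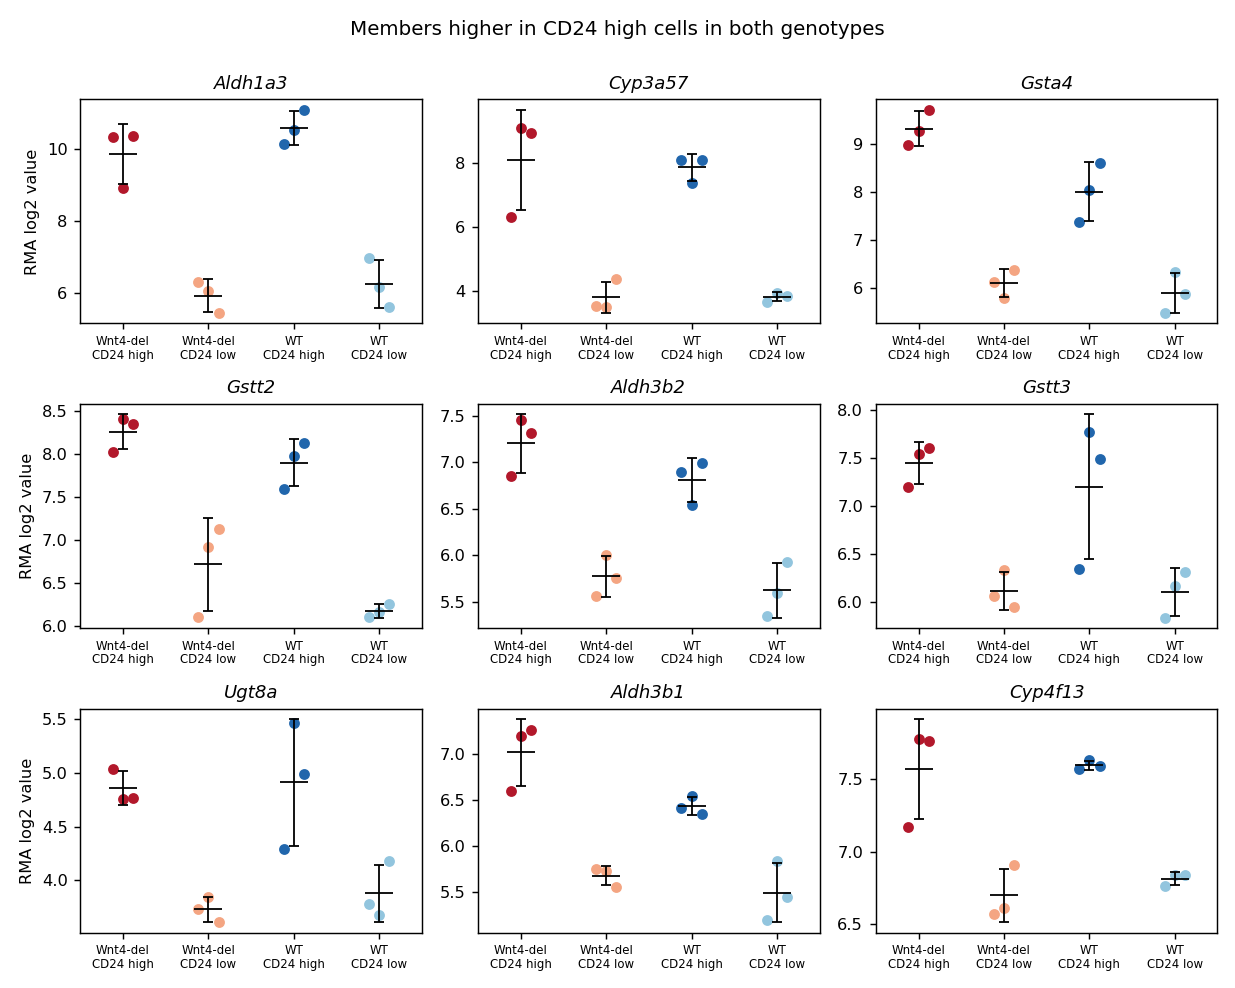
RMA log2 values of the 9 genes that were higher in CD24 high cells in both genotypes, each point 1 array, with the mean and SD of 3 arrays per group in black. Aldh1a3, Cyp3a57 and Gsta4 show the widest gaps, and in each panel the CD24 high arrays lie above the CD24 low arrays of the same genotype.

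The alpha-class glutathione S-transferase gene Gsta4, whose product removes 4-hydroxynonenal, an aldehyde of lipid peroxidation, was higher in CD24 high cells. It read 8.98, 9.27 and 9.72 in Wnt4-deleted CD24 high cells, against 6.12, 5.78 and 6.36 in Wnt4-deleted CD24 low cells. Among WT cells it had 7.37, 8.04 and 8.60 in CD24 high cells, against 5.47, 6.32 and 5.87 in CD24 low cells. The fractions did not overlap in either genotype, and the difference was 3.23 (SE 0.32, adjusted p = 4.5e-05), or 9.41-fold, in Wnt4-deleted cells and 2.12 (SE 0.32, adjusted p = 9.1e-04), or 4.34-fold, in WT cells. The 4 probesets that Gsta1 and Gsta2 share with other genes, which were not tested, had means between 4.81 and 5.50 in Wnt4-deleted CD24 high cells and between 4.13 and 5.11 in WT CD24 high cells, and array 4 stood below arrays 12 and 16 in each.

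The theta-class genes Gstt3, Gstt1, Gstt4 and Gstt2 lie side by side in this order on chromosome 10. The outer 2 were higher in CD24 high cells, while Gstt1 between them pointed the other way. Gstt2 read 8.03, 8.41 and 8.35 in Wnt4-deleted CD24 high cells, against 6.10, 6.92 and 7.13 in Wnt4-deleted CD24 low cells. In WT it read 7.6, 7.98 and 8.13, against 6.10, 6.16 and 6.26. Every CD24 high array was above every CD24 low array, by a mean of 1.54 (SE 0.24, adjusted p = 0.00108) in Wnt4-deleted and 1.73 (SE 0.24, adjusted p = 5.1e-04) in WT cells. Gstt3 read 7.20, 7.54 and 7.6 in Wnt4-deleted CD24 high cells, against 6.07, 6.34 and 5.95 in Wnt4-deleted CD24 low cells. Its WT values were 6.35, 7.77 and 7.49 in CD24 high cells, against 5.84, 6.17 and 6.32 in CD24 low cells, so that array 2 was only just above the CD24 low range. It differed by 1.33 (adjusted p = 0.0118, lost without array 16) in Wnt4-deleted and by 1.09 (adjusted p = 0.0317) in WT cells, where the call was lost without array 1, 9, 10, 13 or 14. Gstt1, named after its values were seen, did not pass, at -0.95 in Wnt4-deleted (adjusted p = 0.134) and -0.94 in WT cells (adjusted p = 0.143). It passed in Wnt4-deleted cells without array 11 (-1.34, adjusted p = 0.0367).

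Of the 7 mu-class genes, which lie together on chromosome 3, 6 had negative differences in each genotype, 3 passed in Wnt4-deleted and 2 in WT cells, and the medians were -0.64 and -0.68. Gstm1 read 8.20, 8.05 and 8.94 in Wnt4-deleted CD24 high cells, against 9.80, 10.17 and 9.74 in Wnt4-deleted CD24 low cells. WT arrays read 7.43, 8.88 and 8.62 in CD24 high cells, against 9.46, 10.25 and 9.86 in CD24 low cells. The fractions did not overlap, and the difference was -1.50 (SE 0.36, adjusted p = 0.0156, lost without array 4, 11 or 12) in Wnt4-deleted and -1.55 (SE 0.36, adjusted p = 0.0134, lost without array 9) in WT cells. Gstm2 read 6.28, 6.96 and 7.03 in Wnt4-deleted CD24 high cells, against 7.37, 8.17 and 8.35 in Wnt4-deleted CD24 low cells. WT values were 5.85, 6.68 and 6.61 in CD24 high cells, against 7.01, 7.67 and 7.47 in CD24 low cells. It passed in Wnt4-deleted cells (-1.21, adjusted p = 0.0231, lost without array 4, 11 or 15) and missed the threshold in WT cells (-1.0, adjusted p = 0.0537), though its WT fractions did not overlap and it passed there with the title-number sets as a block (adjusted p = 4.2e-04). Gstm3 was lower by 0.76 and 0.68 on the log2 scale (adjusted p = 0.0136 and 0.024), and the call was lost without array 12 or with the mean of its 2 probesets in Wnt4-deleted cells and without array 2, 9 or 10 in WT cells. Gstm5, named after its values were seen, did not pass (-0.64 and -1.19), and its WT difference was -0.52 without array 2. The CD24 low arrays 11 and 9, with the highest fibroblast marker means (8.51 and 8.97, against 6.38 to 6.97 in the other CD24 low arrays), had the highest Gstm1 and Gstm3 values of their genotype, and the part of fibroblasts in these genes was not tested. Mu-class genes resemble each other closely, and their probes may read more than 1 of them.

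Gsto1, the omega-class enzyme that reduces dehydroascorbate, read 8.34, 7.76 and 8.09 in Wnt4-deleted CD24 high cells, against 8.89, 8.37 and 9.06 in Wnt4-deleted CD24 low cells. Among WT cells it had 7.48, 7.66 and 8.45 in CD24 high cells, against 9.05, 8.50 and 9.05 in CD24 low cells. The gap was narrow in both genotypes. Gsto1 passed in WT (-1.0, adjusted p = 0.0313), where the call was lost without array 1, 2, 10 or 13, and not in Wnt4-deleted cells (-0.71, adjusted p = 0.119), where it passed with the title-number sets as a block (adjusted p = 0.0382). Gstp1, the pi-class gene, is named after its values were seen because 1 array decided its direction: array 2 read 8.54, while arrays 10 and 14 read 10.42 and 11.30, and the WT difference was -0.65 with array 2 and 0.13 without it. Array 2 stood below the mean of the other WT CD24 high arrays in 36 of the 53 genes above background (median -0.21). Array 14 stood above that of its others in 37 (median 0.26), while the medians over all genes were 0.06 and -0.01. In Wnt4-deleted CD24 high cells, array 4 stood below the mean of its others in 37 of the 53 (median -0.17, and -0.01 over all genes).

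Among the UDP-glycosyltransferases only Ugt8a passed, which adds galactose to ceramide and is known from myelin. It read 5.04, 4.76 and 4.77 in Wnt4-deleted CD24 high cells, against 3.73, 3.85 and 3.61 in Wnt4-deleted CD24 low cells. In WT it read 4.29, 5.46 and 4.99 in CD24 high cells, against 3.78, 3.68 and 4.18 in CD24 low cells. The fractions did not overlap, with a difference of 1.13 (adjusted p = 0.00933) in Wnt4-deleted and 1.03 (adjusted p = 0.0152) in WT cells, but no group mean exceeded the background guide, and the WT call was lost without array 1, 9, 10 or 14. None of the 8 Ugt2 genes, the main hepatic conjugators of steroids and bile acids beside the Ugt1a group, passed, and their differences lay between -0.23 and 0.16. The probeset shared by 8 Ugt1a genes, which was not tested, ran the other way from Ugt8a, with means of 4.69 in Wnt4-deleted CD24 high and 5.73 in Wnt4-deleted CD24 low cells, and 4.71 in WT CD24 high and 5.23 in WT CD24 low cells, and its fractions did not overlap.

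Genes that supply or complement these enzymes were measured beside them, in 5 lists of 104 genes in all. Of the 104, 24 passed in Wnt4-deleted cells (11 up and 13 down in the CD24 high fraction) and 21 in WT cells (8 and 13), or 23.1% and 20.2%, beside 16.4% and 16.1% of all genes. Of all genes, 8.23% were up and 8.22% down in Wnt4-deleted cells, and 7.93% up and 8.21% down in WT cells. The median differences of the 104 were -0.02 and -0.11. Of 19 genes of glutathione supply, Gpx3, a secreted glutathione peroxidase, was higher in CD24 high cells by 3.54 in Wnt4-deleted and 2.77 in WT cells. Gclc, the rate-limiting enzyme of glutathione synthesis, was higher by 1.94 and 1.26, the WT call lost without array 1, 2, 9 or 14. Gpx7 and Gpx8, peroxidases of the endoplasmic reticulum, were lower, Gpx7 with differences of -2.07 and -1.60. Of 20 sensors and exporters, the exporter Abcc3 was higher by 2.93 and 2.75, and Abcb1b, a drug exporter of the P-glycoprotein type, differed by -2.76 and -2.46. Tiparp, a target and repressor of the aryl hydrocarbon receptor, differed by -1.23 and -1.57, whereas the receptor gene Ahr, which did not pass, differed by 0.12 and -0.02. Of 17 P450 partners and other P450 genes, Cyp7b1, an oxysterol and steroid hydroxylase, differed by -2.04 and -1.64. Of 29 other oxidation and conjugation enzymes the cholesterol sulfotransferase Sult2b1 was higher by 1.52 and 1.39. From these lists and the exporters, Cyp20a1 and Nat2 also passed as higher and Cbr3 and Abcc4 as lower, in both genotypes. Each of these 4 lost its call in at least 1 genotype when any 1 of several arrays was left out. Gsr (higher) and Abcc1 (lower) passed in both genotypes too. They were outside the 4 largest of their lists and are named after their values were seen. None of the 19 retinoid genes passed in both genotypes, although 5 passed in Wnt4-deleted and 2 in WT cells.

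Deletion of Wnt4 was compared with WT within each fraction, and no member passed. In CD24 high cells 0 of the 120 genes passed limma's adjusted threshold, beside 0.00502% of all genes, 6 (5%) had an unadjusted p under 0.05, beside 1.99% of all genes, and in 18 (15%) the arrays of the 2 genotypes did not overlap, beside 7% of all genes. In CD24 low cells again 0 passed, beside 0.00502% of all genes, 2 (1.67%) had an unadjusted p under 0.05, beside 3.06%, and 5 (4.17%) did not overlap, beside 6.77%. The median difference was -0.03 in CD24 high and 0.01 in CD24 low cells. A test of the difference between both effects, CD24 low minus CD24 high, passed in 0 members, beside 0% of all genes, and 4 members (3.33%) had an unadjusted p under 0.05, beside 1.37%.

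Gsta4 stood first among the members in CD24 high cells. Its 3 Wnt4-deleted CD24 high arrays (8.98, 9.27 and 9.72) all lay above the 3 WT CD24 high arrays (7.37, 8.04 and 8.60), with means of 9.32 ± 0.37 and 8.01 ± 0.62 (SD, n = 3 each). The difference of 1.32 (SE 0.32), or 2.49-fold, was the eighth highest of all 19938 genes and 13th by unadjusted p, but its adjusted p was 1. It lay between 1.0 without array 2 and 1.62 without array 14, and between 0.207 and 1 in adjusted p over all alternatives. In CD24 low cells the genotypes overlapped at 6.09 ± 0.30 and 5.89 ± 0.43, a difference of 0.20 (SE 0.32), and the difference of effects was -1.12 (adjusted p = 1).

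**Figure D4:**
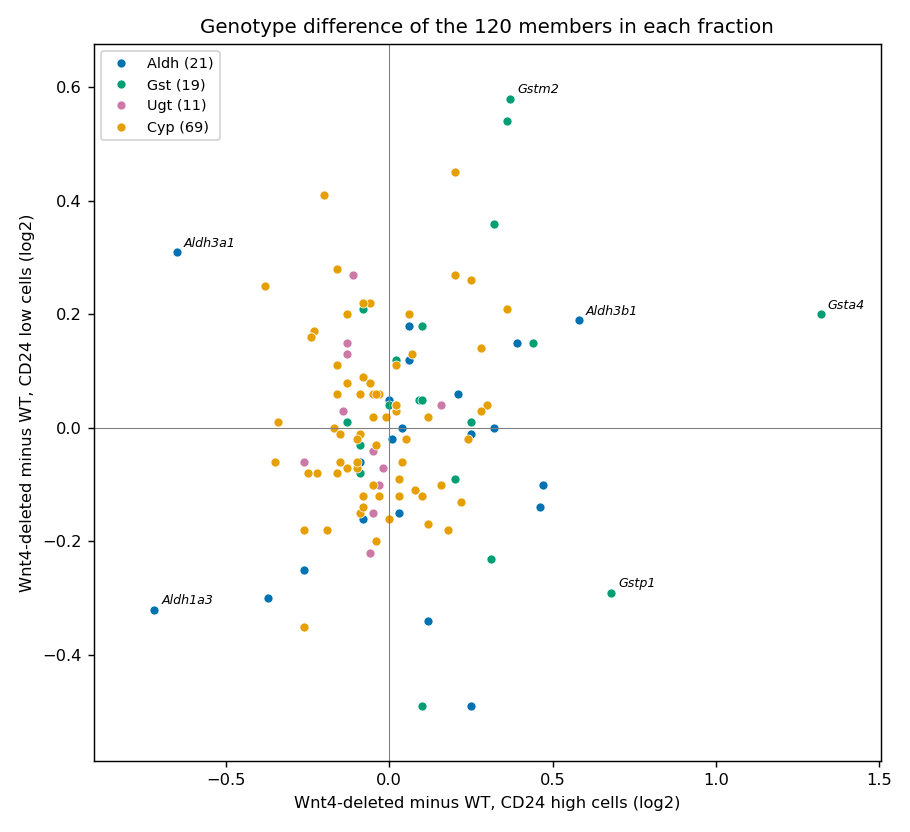
Log2 difference of Wnt4-deleted minus WT cells in CD24 high (x axis) and CD24 low cells (y axis) for the 120 genes, each point 1 gene, coloured by gene family. Gsta4 lies alone at 1.32 in CD24 high cells and none of the genes passed the adjusted threshold in either fraction.

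The other members with low unadjusted p-values in CD24 high cells were 2 aldehyde dehydrogenases and 3 Cyp2 genes. Aldh3b1 read 6.60, 7.19 and 7.26 in Wnt4-deleted CD24 high cells, against 6.41, 6.54 and 6.35 in WT CD24 high cells, without overlap (0.58, SE 0.20). Aldh5a1 read 5.62, 5.23 and 5.11 in Wnt4-deleted CD24 high cells, against 4.53, 4.92 and 5.14 in WT CD24 high cells, with an overlap (0.46, SE 0.20). Cyp2d12 (0.28), Cyp2d9 (-0.26) and Cyp2c29 (-0.34) had all group means below the background guide. All 5 had an adjusted p of 1. Of the 18 genes without overlap in CD24 high cells, 6 were higher in Wnt4-deleted cells (Aldh1b1, Aldh3a2, Aldh3b1, Cyp2d12, Cyp3a44 and Gsta4) and 12 lower. Over all genes 7% did not overlap in these cells, and their split by direction was not counted. Of all genes, 8650 had a positive and 11288 a negative difference in this comparison. The guide was not reached in any group by 11 of the 18, and of the other 7, 4 were higher (Aldh1b1, Aldh3a2, Aldh3b1 and Gsta4) and 3 lower (Cyp2d10, Cyp2d37-ps and Cyp2w1). Aldh3a2 read 9.41, 9.53 and 9.63 in Wnt4-deleted CD24 high cells, against 8.91, 9.0 and 9.25 in WT CD24 high cells, a difference of 0.47 (SE 0.26) that had an unadjusted p above 0.05.

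In CD24 low cells the 6 members with the smallest unadjusted p were Cyp2w1, Gstt2, Aldh4a1, Gsto2, Cyp2c65 and Cyp2j6. Cyp2w1, known as a fetal and tumour P450, read 4.82, 4.96 and 4.95 in Wnt4-deleted CD24 low cells, against 5.52, 5.12 and 5.14 in WT CD24 low cells (-0.35, SE 0.12). In CD24 high cells it read 4.74, 4.76 and 4.79 in Wnt4-deleted arrays, against 5.0, 5.11 and 4.96 in WT arrays (-0.26, SE 0.12). No array overlapped between the genotypes in either fraction, at values near the background guide. Gstt2 differed by 0.54, Cyp2j6 by 0.45, Cyp2c65 by 0.22, and Aldh4a1 and Gsto2 by -0.49 each. Only Cyp2w1 and Gstt2 had an unadjusted p under 0.05, and all 6 had an adjusted p of 1. Cyp2c23 and Cyp4x1, both at background, and Gsta4 and Aldh4a1 were the 4 members with an unadjusted p under 0.05 for the difference of effects, at 0.41, 0.40, -1.12 and -0.74.

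**Figure D5:**
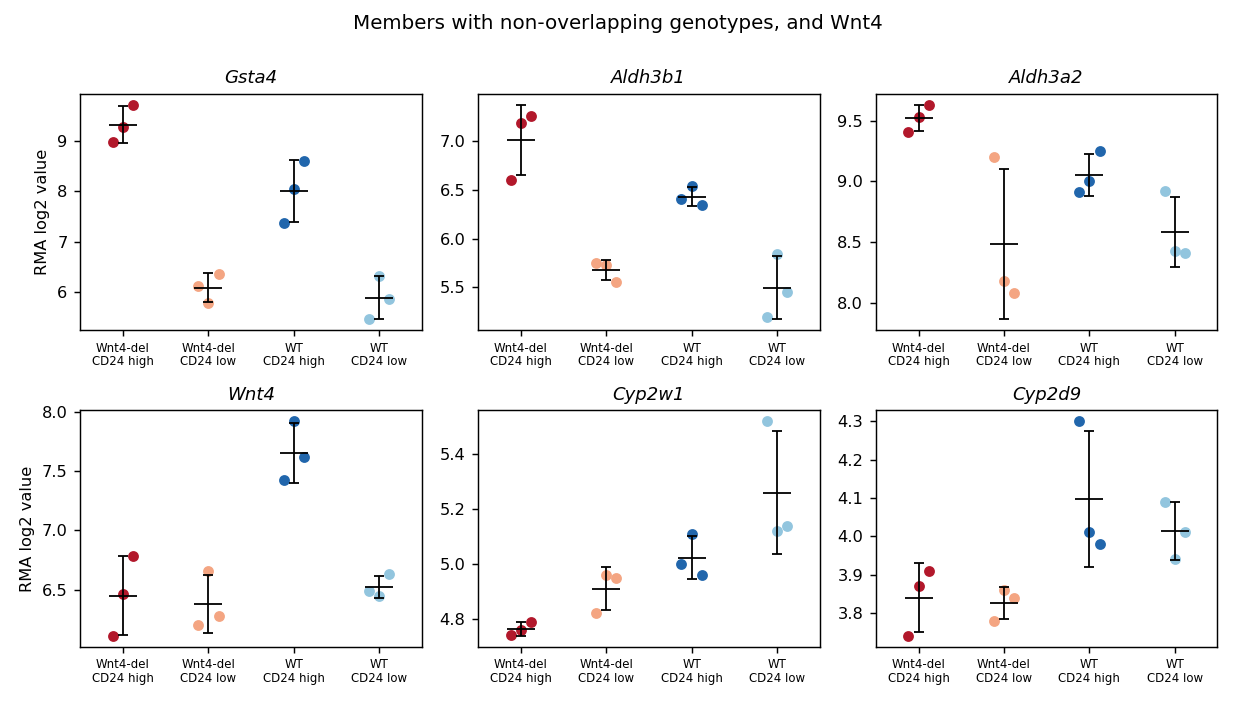
RMA log2 values of 5 members and of Wnt4, each point 1 array, with the mean and SD of 3 arrays per group in black. Gsta4, Aldh3b1, Aldh3a2, Cyp2w1 and Cyp2d9 separate the genotypes in CD24 high cells, as Wnt4 does, with Cyp2w1 and Cyp2d9 lying lower in Wnt4-deleted cells in both fractions.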

How the data were processed

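The authors deposited 1 table of log2 expression values, made by RMA in Affymetrix Expression Console 1.1.2800 per the labels, which corrects background, quantile-normalises and summarises probes, with values between 1.62 and 13.8; the log base follows from RMA. RNA was amplified and hybridised on 12 arrays. Precision is limited by having 3 arrays per group. Of 35556 probesets, 21789 carry 1 gene symbol, 1621 several and 12146 none. For each of 19938 symbols the single-symbol probeset with the highest mean was used, and 118 of 120 members had only 1. Differences were fitted with limma 3.58.1 in R 4.3.3 (1 mean per group, 8 residual degrees of freedom, 11.05 after moderation, two-sided), adjusted by Benjamini-Hochberg over all genes within each of 5 comparisons. The fit was tested on simulated data. Groups come from the titles.

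Every member that passed with a log2 difference of at least 1 is named, then the 6 smallest unadjusted p-values per genotype comparison (4 for the difference of effects), up to 4 genes of each related list that passed in both genotypes, and Wnt4. Other genes, namely 8 members that passed with smaller differences and those so marked in the text, were added after their values were seen. Members, lists and rules were chosen with earlier results of these data known. Symbols and gene order follow RefSeq (GRCm38.p6), and all 120 symbols matched.

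Alternatives were a filter at the 40th percentile of the mean level, averaged probesets, arrays centred on their medians, quantile normalisation repeated, a trended robust prior, weighted arrays, a model of only the groups at hand, title-number sets as a block, other thresholds, each array left out, and, added after seeing the data, arrays 9 to 16 only.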

Additional observations from a re-analysis of the deposited data

How the results depend on the processing

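The members passing between the fractions numbered 24 in Wnt4-deleted and 20 in WT cells. Leaving out 1 array gave 16 to 24 and 14 to 22, and a threshold of 0.01 gave 12 and 13. All other alternatives stayed within 1.5 times the counts reported. In both genotype comparisons and the difference of effects no alternative called a member, with 0 to 0 over the arrays left out. The 2516 repeated values of named genes include the other thresholds, at which the difference itself cannot change. They also include the genotype comparisons and the difference of effects, where no named gene passed or changed sign. Of the 2516, 2320 kept direction and side of the threshold, 149 no longer passed, 37 newly passed and 10 changed sign, none of them called. These were Cyp2c23 in WT (-0.03 with array weights, -0.01 without array 2, -0.00 without array 9, -0.02 without array 14, up to 0.10 without array 10, and -0.02 on arrays 9 to 16), Gstp1 in WT (from -1.25 without array 14 to 0.13 without array 2, 0.32 on arrays 9 to 16), Aldh3a1 in Wnt4-deleted cells (-0.04 on arrays 9 to 16) and Wnt4 in Wnt4-deleted cells (-0.02 without array 3, from -0.10 without array 16 to 0.24 without array 4), and the cause was not tested. No 2 groups share a title number, but the numbers form 3 sets (1 to 4, 9 to 12 and 13 to 16) with 1 array of each group, whose meaning the labels do not give. With the sets as a block, 26 members passed in Wnt4-deleted and 22 in WT cells; of the named members, Cyp4b1 was gained in both genotypes, Gstm2 in WT and Aldh1a1 and Gsto1 in Wnt4-deleted cells, and Cyp2c23 was lost in Wnt4-deleted cells. With 3 arrays per group, small differences near background cannot be resolved.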
